A study of Mus musculus with 8 samples.

Results

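Stem cell transcription factors were followed through sorted mouse bone marrow on 8 arrays. The 10 genes, Prdm16, Mecom, Hlf, Lmo2, Gata2, Tal1, Lyl1, Erg, Fli1 and Etv6, were taken by name, as regulators known to maintain blood stem cells, and read from the array probes whose transcripts map to them. They are 10 of the 20660 genes that could be named on the array. All 10 had a probe, all 10 were bright enough to be tested, and 8 were well above background on every array. Prdm16 and Mecom were each well above background on 5 of the 8 arrays.

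The sorted fraction was LSK, marrow cells that lack lineage markers and display c-Kit and Sca-1, which contains the stem cells and their multipotent progeny. Donor stem cells (CD45.2) carried Cre-ERT, a tamoxifen-regulated recombinase, with either unmodified or floxed Ezh2, and received a retrovirus with RUNX1S291fs or an empty control virus. They were grafted into lethally irradiated recipients together with wild-type CD45.1 marrow, on a C57BL/6 background, and the floxed Ezh2 was then deleted. Ezh2 is the enzyme of a complex that places a repressive mark on histone H3, and RUNX1S291fs is a frameshift form of the blood transcription factor RUNX1.

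There were 8 groups with 1 array each, so no group has a replicate. The WT group carried Cre-ERT and the empty virus, the Ezh2Δ/Δ group lacked Ezh2, the RUNX1S291fs group carried the mutant virus, and the RUNX1S291fs/Ezh2Δ/Δ group, called double mutant here, had both lesions. These 4 groups were CD45.2 cells taken at month 4 after transplantation and pooled from 2 to 4 mice. The MDS group came from a single moribund double-mutant mouse with myelodysplastic syndrome, and the MDS/ML group from another single moribund double-mutant mouse with myelodysplastic syndrome and myeloid leukemia. The sources used here do not give their age. The last 2 groups were wild-type CD45.1 competitor cells sorted at month 4 from RUNX1S291fs recipients and from double-mutant recipients, and are described as wild type in the labels. WT and both CD45.1 arrays are called the wild-type arrays below. They are not replicates of one another, because donor allele, virus and host differ.

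Gata2, Tal1, Lyl1, Lmo2, Erg and Fli1 encode proteins that bind many of the same regulatory regions in blood progenitors, together with Runx1. Tal1 and Lyl1 are basic helix-loop-helix factors that pair with E proteins at the E-box, and the adaptor Lmo2 with its partner Ldb1 joins them to GATA factors. Prdm16, Mecom, Hlf and Etv6 lie outside that complex and are each needed to keep a normal pool of adult stem cells in the mouse.

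Promoters are shown for the 6 members with an entry that were either not well above background in both moribund mice or lay outside every month 4 array there. RefSeq promoters of build GRCm38.p6 were matched for 8 of the 10 members. The 250 bases before the most upstream listed start are given, 5′ to 3′ on the strand of the gene. They lie at chr4:154636874-154637123 on the minus strand (Prdm16), chr3:30509760-30510009 on the minus strand (Mecom), chr11:90390918-90391167 on the minus strand (Hlf), chr6:88193641-88193890 on the plus strand (Gata2), chr4:115056176-115056425 on the plus strand (Tal1) and chr8:84701207-84701456 on the plus strand (Lyl1). Capitals mark the E-box CANNTG, the GATA site AGATAA and the ETS site CGGAAG, each searched on both strands.
Prdm16: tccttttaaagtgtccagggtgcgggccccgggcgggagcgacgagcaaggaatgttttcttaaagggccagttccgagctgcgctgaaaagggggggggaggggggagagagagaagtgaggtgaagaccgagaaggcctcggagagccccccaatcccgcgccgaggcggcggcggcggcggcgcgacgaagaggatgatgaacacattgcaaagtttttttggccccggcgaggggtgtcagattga
Mecom: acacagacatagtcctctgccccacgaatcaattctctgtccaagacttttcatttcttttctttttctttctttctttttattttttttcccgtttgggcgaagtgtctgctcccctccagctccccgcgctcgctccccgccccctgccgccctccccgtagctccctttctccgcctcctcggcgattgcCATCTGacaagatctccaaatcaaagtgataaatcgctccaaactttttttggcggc
Hlf: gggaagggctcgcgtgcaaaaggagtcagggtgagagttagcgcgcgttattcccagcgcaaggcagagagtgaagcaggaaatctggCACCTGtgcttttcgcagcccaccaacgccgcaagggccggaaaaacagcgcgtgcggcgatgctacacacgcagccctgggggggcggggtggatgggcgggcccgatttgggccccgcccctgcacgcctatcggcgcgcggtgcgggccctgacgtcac
Gata2: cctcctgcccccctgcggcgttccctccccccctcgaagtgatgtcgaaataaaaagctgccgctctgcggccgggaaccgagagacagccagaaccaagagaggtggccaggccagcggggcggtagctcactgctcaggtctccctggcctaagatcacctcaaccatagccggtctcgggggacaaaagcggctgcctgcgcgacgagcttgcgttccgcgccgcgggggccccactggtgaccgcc
Tal1: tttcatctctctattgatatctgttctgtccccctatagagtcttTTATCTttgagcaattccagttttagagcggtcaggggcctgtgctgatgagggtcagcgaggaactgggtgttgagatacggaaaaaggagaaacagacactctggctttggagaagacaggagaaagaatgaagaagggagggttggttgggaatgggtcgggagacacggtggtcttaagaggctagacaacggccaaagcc
Lyl1: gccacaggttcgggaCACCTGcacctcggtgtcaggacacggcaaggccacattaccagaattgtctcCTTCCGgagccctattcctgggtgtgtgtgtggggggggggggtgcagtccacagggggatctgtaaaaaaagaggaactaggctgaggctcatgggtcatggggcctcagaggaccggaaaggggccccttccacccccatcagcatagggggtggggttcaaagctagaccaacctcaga

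An E-box was found in 3 of the 8 member promoters (Mecom, Hlf and Lyl1), against 66.2% of the 32851 promoters of the same length. The GATA site occurred in 1 of 8 (Tal1), against 9.99% of all promoters. The ETS site occurred in 1 of 8 (Lyl1), against 13.6%. The spacing of an E-box with GATA 7 to 9 bases further on, as bound by the Tal1, Lmo2 and Gata complex, was found in 0 of 8 and in 1.42% of all promoters. These matches describe letters in a window and say nothing of binding in these cells.

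Between 43.9% and 55.3% of probes were well above background, the dimmest array being the CD45.1 cells of RUNX1S291fs hosts. Spots of one probe on one array differed by a median SD of 0.0544 to 0.0676 (log2), which covers spotting only. The arrays lay on 3 slides, with WT, double mutant and MDS on the first, MDS/ML alone on the third, and the other 4 on the second. Each level below is the log2 signal of one probe minus the 75th percentile of its array, so levels are compared between arrays for one gene. Different genes are combined only in means and sums over a list, where a single bright probe can dominate a sum. The 8 values of a gene are always given in the order WT, Ezh2Δ/Δ, RUNX1S291fs, double mutant, MDS, MDS/ML, CD45.1 from RUNX1S291fs hosts and CD45.1 from double-mutant hosts.

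The targeted genes were read first. Ezh2 stood at 3.46, 3.51, 3.40, 3.42, 3.29, 3.10, 4.01 and 3.85, so the arrays labelled as deleted did not stand apart from WT. The sources used here do not say where the probe lies relative to the floxed exon, so this level does not check the deletion. Runx1 stood at 3.04, 3.38, 4.41, 3.47, 5.31, 4.65, 3.25 and 3.55 on its brighter probe, highest in MDS, MDS/ML and RUNX1S291fs. The double mutant lay among the arrays without RUNX1S291fs. A second probe, well above background on all 8 arrays, read 2.54, 2.09, 2.71, 2.08, 3.65, 4.06, 1.80 and 2.49. There MDS/ML was highest, and RUNX1S291fs stood just above WT. Whether either probe can read the viral transcript is likewise not known.

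The LSK label was checked against the genes of the sort. Kit, which encodes the c-Kit receptor, stood between 4.06 and 5.11 and was well above background on all 8 arrays. Ly6a, which encodes Sca-1, stood at 3.74, 3.40, 3.52, 3.17, 0.53, 1.18, 3.90 and 4.14. It was well above background on all 8 arrays but lower in both moribund mice than on any month 4 array (moribund stage effect -2.26 ± 0.38, SE, adjusted p = 0.0367 by limma). Of 8 genes of the lineages removed by the sort, 7 had a probe and 4 were bright enough to test, and 0 of these 4 passed the test for moribund stage.

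Tests came from 1 additive limma fit over the 8 arrays, with terms for Ezh2 deletion, RUNX1S291fs and moribund stage, run on 13555 genes with Benjamini-Hochberg adjustment. Because groups have no replicate, residual scatter (4 degrees of freedom) stems from differences among the 3 wild-type arrays, between the 2 moribund mice and from what additive terms leave over. The fit also draws the variance of each gene toward that of all genes tested, which adds 3.12 degrees of freedom. A p-value therefore sets an effect against spread between unlike samples and not between replicate mice.

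In the moribund mice members stood apart in both directions. Hlf and Lmo2 lay below all 6 month 4 arrays in both moribund mice, and Gata2, Tal1 and Lyl1 lay above all 6. Prdm16 and Mecom were not well above background in either moribund mouse, but 1 month 4 array was also dim for each, so they cannot be ranked against all 6. Hlf was the member with the widest spread, at 53.2-fold lower in MDS and 12.0-fold lower in MDS/ML than in the month 4 double mutant. The other end was Gata2, at 2.24-fold and 7.34-fold higher. These are differences between single arrays and have no test.

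**Figure D1:**
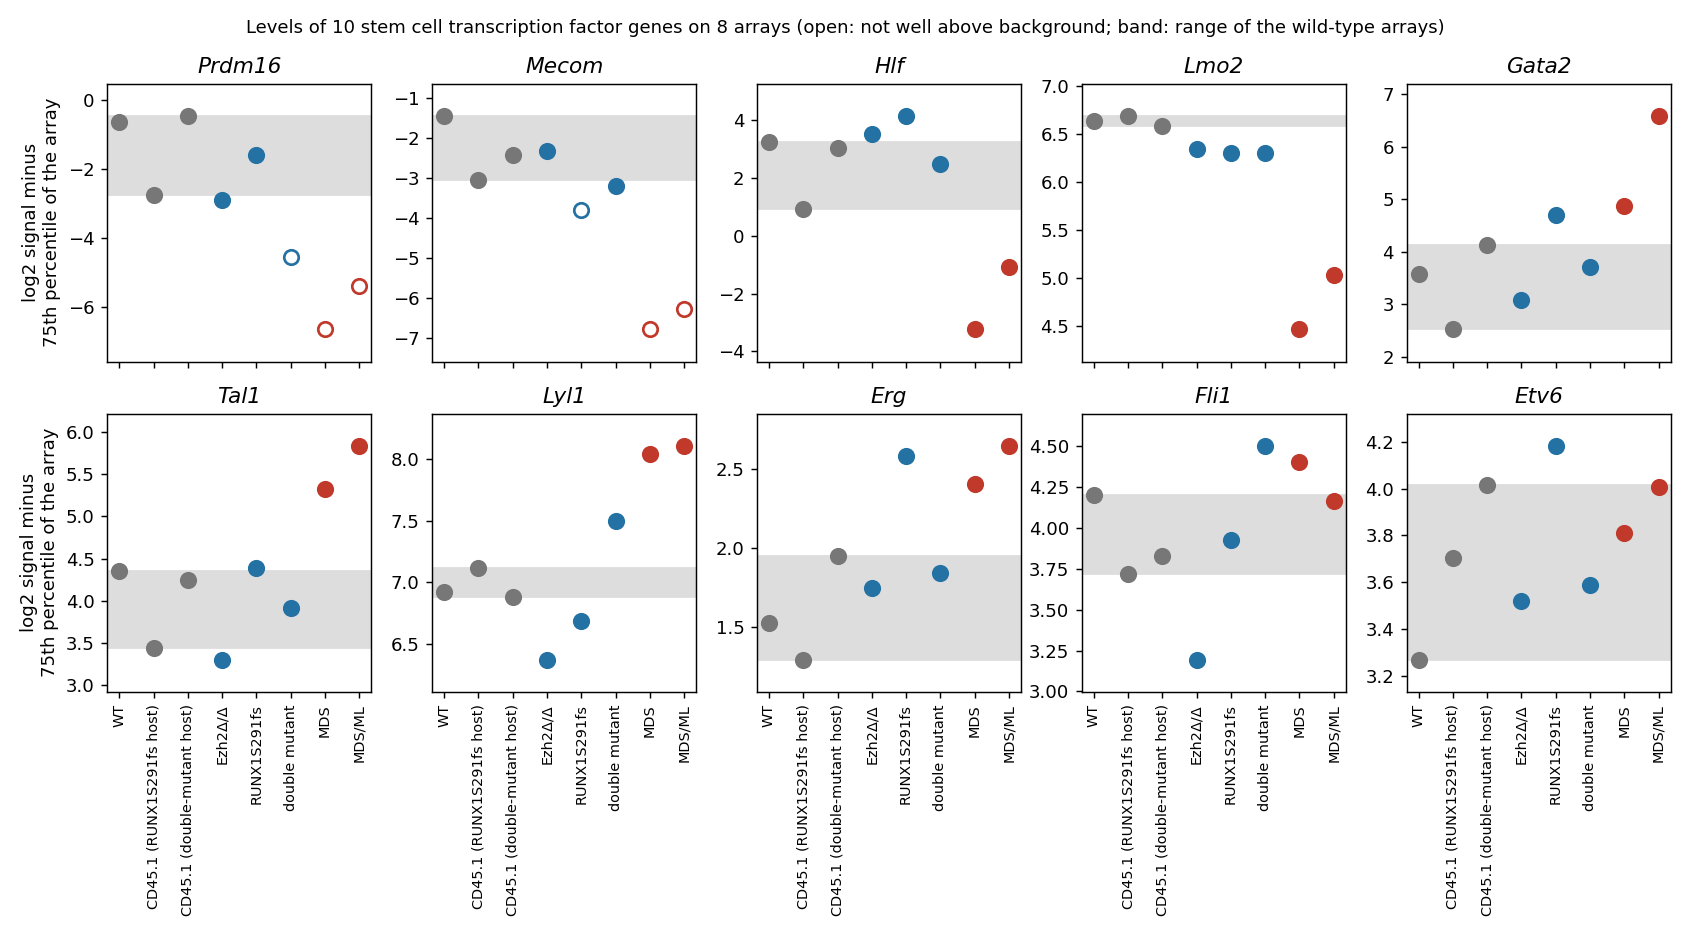
Levels of the 10 genes (log2 signal against the 75th percentile of each array) on the 8 arrays, one point per array, with open points not well above background and a grey band for the range of the 3 wild-type arrays. In both moribund mice Hlf lay at -3.24 and -1.09 against 0.94 or more elsewhere, while Gata2 lay at 4.87 and 6.59 against 4.70 or less.

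By this count, in which a dim value has an upper limit and no lower one, 5 of 10 members lay apart without overlap, 2 of them lower and 3 higher, against 25.6% of all genes either way. The fit gave a smaller picture: 0 of 10 members passed the adjusted threshold for the moribund stage effect, against 1.84% of all genes (250, of which 37 were higher and 213 lower). That count of genes rested on single arrays, with 0 called without the double mutant and 381 without MDS/ML. At an unadjusted p under 0.05 there were 5 members (Mecom, Hlf, Lmo2, Tal1 and Gata2), against 13.7% of all genes. The median stage effect over the members was 0.18, with 6 positive and 4 negative, beside -0.13 over all genes.

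Hlf encodes a bZIP factor that marks stem cells and keeps them quiescent in the mouse. Its levels were 3.24, 3.52, 4.15, 2.49, -3.24, -1.09, 0.94 and 3.03. Both moribund arrays stood below all others, yet Hlf was still well above background there. The stage effect was -5.49 ± 1.19 (SE, 95% interval -8.30 to -2.68, adjusted p = 0.0820, limma). On the same slide, MDS lay 5.73 below the double mutant on the log2 scale, a difference wider than the 2.30 that separated the wild-type arrays. In bulk RNA such as this, fewer cells that express a gene and less RNA per cell cannot be told apart. The call turned with the processing: with normexp background correction the adjusted p was 0.0391, and over all alternatives it ran from 0.0391 to 0.236.

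Prdm16 encodes a zinc finger protein that restrains oxidative stress in stem cells. It stood at -0.66, -2.90, -1.59, -4.55, -6.66, -5.41, -2.76 and -0.46. It was not well above background in the double mutant, MDS or MDS/ML, and the highest levels were those of WT and of the CD45.1 cells of double-mutant hosts. The month 4 mean, with the dim double mutant at its measured value, was 5.60-fold above the mean limit of the moribund arrays. The limit of an array is the weakest signal that passed as well above background, or the gene's own signal where that is higher. Because the dim double mutant has no lower limit, this is not a strict bound. Since the double mutant was itself dim at month 4, a further drop in the moribund mice could not be measured. The stage effect was -1.89 ± 0.93 (SE, adjusted p = 0.447, limma).

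Mecom encodes the zinc finger factor Evi1 and the longer Mds1-Evi1 form, the latter linked to quiescence. Its brighter probe read -1.44, -2.32, -3.78, -3.20, -6.78, -6.27, -3.05 and -2.42. It was dim in the RUNX1S291fs, MDS and MDS/ML arrays, and highest in WT. The month 4 mean, with the dim RUNX1S291fs array at its measured value, was 3.83-fold above the mean limit of the moribund arrays, again not a strict bound. The stage effect was -3.15 ± 0.60 (SE, adjusted p = 0.0564, limma). Leaving out the dim CD45.1 array from RUNX1S291fs hosts brought the adjusted p to 0.0494, and over all alternatives it ran from 0.0494 to 0.465. A second probe read -3.27, -3.67, -4.69, -5.06, -6.94, -6.49, -4.45 and -2.88 and was above background on 3 arrays. Neither probe was well above background in a moribund mouse, and they disagreed on whether WT or the CD45.1 cells of double-mutant hosts stood highest. The sources used here do not say which form each probe reads.

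**Figure D2:**
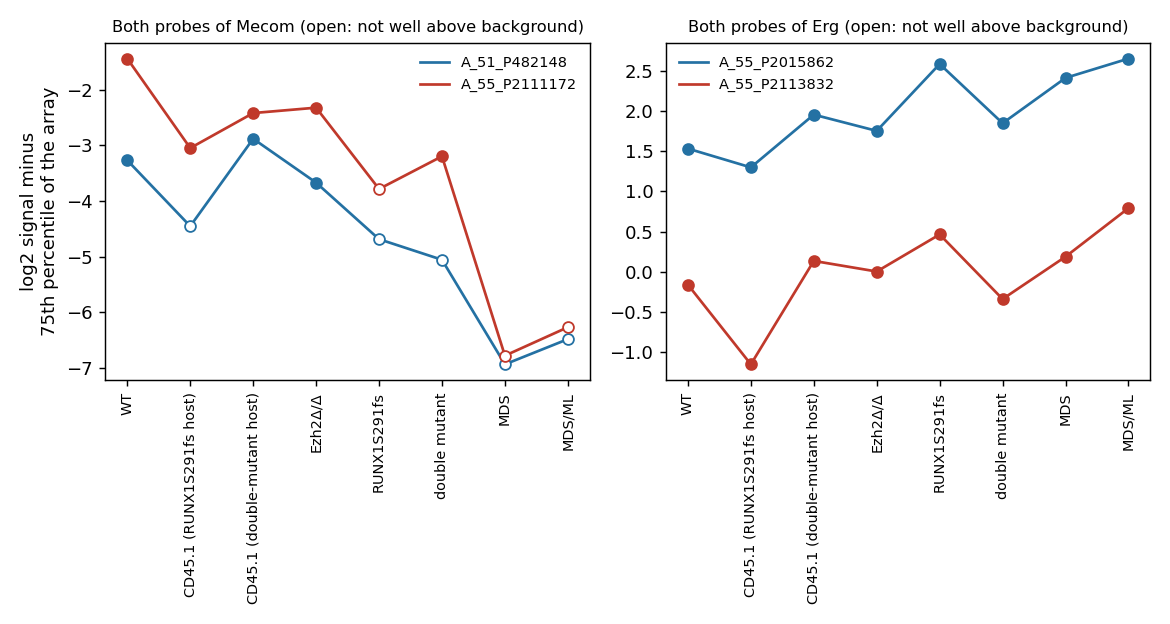
Both probes of Mecom and of Erg (log2 signal against the 75th percentile of each array) on the 8 arrays, with open points not well above background. The brighter Mecom probe reads -1.44 in WT and -6.78 in MDS, and both Erg probes are well above background on every array.

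Lmo2 encodes the adaptor that carries no DNA contact of its own and holds the Tal1 and Gata2 complex together. Its levels were 6.63, 6.34, 6.30, 6.30, 4.46, 5.03, 6.69 and 6.58. The 6 month 4 arrays lay within 0.39 of each other, and both moribund arrays stood well under them. MDS was 3.56-fold and MDS/ML 2.41-fold below the double mutant, against a spread of 0.11 (log2) over the wild-type arrays. The stage effect was -1.46 ± 0.36 (SE, 95% interval -2.30 to -0.62, adjusted p = 0.110, limma).

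Its binding partners lay on the other side. Gata2, the GATA factor of stem and mast cell progenitors, stood at 3.58, 3.08, 4.70, 3.71, 4.87, 6.59, 2.53 and 4.13. MDS/ML was the highest array by 1.71, and MDS exceeded the RUNX1S291fs array by little. The stage effect was 1.82 ± 0.77 (SE, 95% interval 0.01 to 3.63, adjusted p = 0.362, limma).

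Tal1, the basic helix-loop-helix factor needed to form blood stem cells and later for megakaryocytes and red cells, stood at 4.35, 3.30, 4.38, 3.91, 5.32, 5.84, 3.44 and 4.25. Both moribund arrays stood above the other 6, which spanned 1.08. The stage effect was 1.74 ± 0.45 (SE, 95% interval 0.67 to 2.80, adjusted p = 0.128, limma).

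Lyl1, the close relative of Tal1 that can partly stand in for it in adult stem cells, stood at 6.92, 6.38, 6.69, 7.50, 8.04, 8.11, 7.11 and 6.89. The month 4 double mutant was already the highest of the month 4 arrays. The stage effect was 1.00 ± 0.45 (SE, adjusted p = 0.391, limma), and neither moribund array was 2-fold above the double mutant.

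The ETS factors had the narrowest ranges over the 8 arrays. Erg, needed for stem cell maintenance and in megakaryocytes, stood at 1.53, 1.75, 2.58, 1.85, 2.41, 2.65, 1.30 and 1.95 on its brighter probe and at -0.16, 0.00, 0.46, -0.34, 0.19, 0.79, -1.15 and 0.14 on the other. Both probes had MDS/ML highest and the CD45.1 cells of RUNX1S291fs hosts lowest, and the moribund arrays overlapped the month 4 arrays. Fli1, a megakaryocyte and stem cell ETS factor, stood at 4.20, 3.19, 3.93, 4.50, 4.41, 4.16, 3.72 and 3.83. It was lowest in Ezh2Δ/Δ and highest in the month 4 double mutant. Etv6, the ETS repressor that adult stem cells need to survive in the marrow, stood at 3.27, 3.52, 4.18, 3.59, 3.81, 4.00, 3.70 and 4.01. Its full range of 0.91 was the narrowest of the 10 members, and the wild-type arrays alone spanned 0.75. The stage effects of Erg, Fli1 and Etv6 were 0.42, 0.17 and 0.18, each smaller than its SE.

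**Figure D3:**
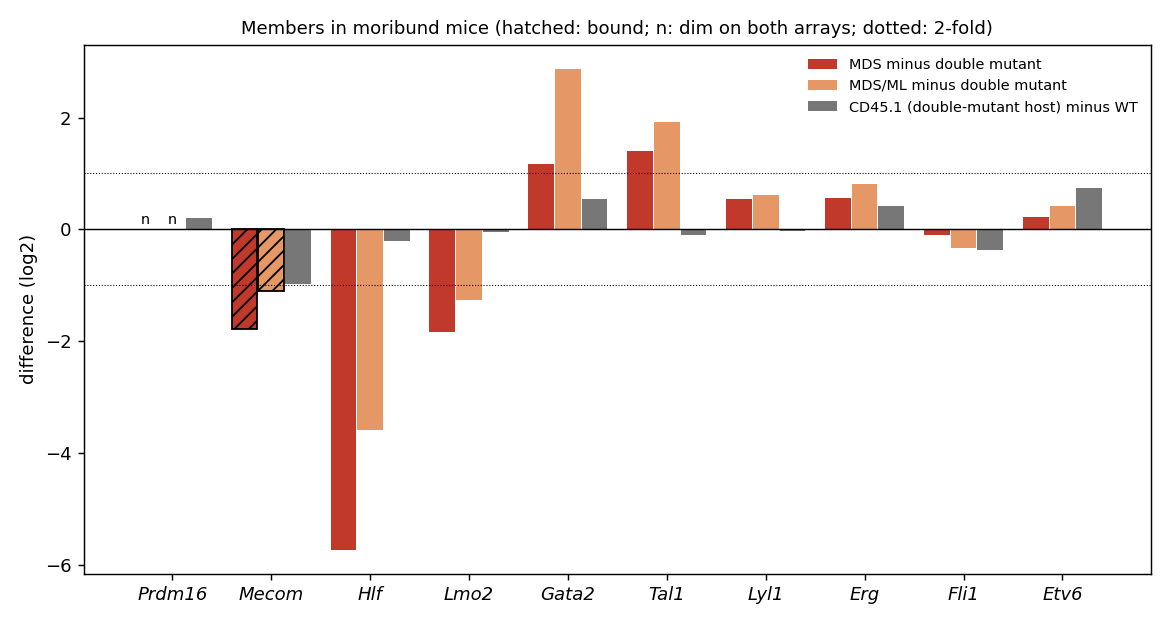
Difference (log2) of each gene between MDS or MDS/ML and the month 4 double mutant, with hatched bars for bounds, n for genes dim on both arrays, and grey bars for the CD45.1 cells of double-mutant hosts minus WT. Hlf lay 5.73 and 3.58 lower and Gata2 1.16 and 2.88 higher, while no grey bar passed the dotted 2-fold lines (the CD45.1 cells of RUNX1S291fs hosts, not drawn, differed from WT past 2-fold in 4 of 10 genes).

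Against the double mutant, 5 of the 9 measured members were at least 2-fold apart in MDS, where 30.9% of all genes were, and 5 of 9 in MDS/ML, where 25.0% were. The same 5 genes made both counts: Hlf, Lmo2 and Mecom lower, Gata2 and Tal1 higher. Mecom was at least 3.45-fold lower in MDS and at least 2.14-fold lower in MDS/ML. These comparisons share the double-mutant array. The moribund mice also differed from each other, with Hlf 4.43-fold and Gata2 3.28-fold higher in MDS/ML than in MDS. These were 2 of 8 measured members, against 20.5% of all genes.

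Genes of other states moved on the same 2 arrays. Procr and Cd34, surface genes of stem and progenitor cells, fell with Ly6a. Procr stood at 2.74, 2.57, 3.80, 1.35, -3.48, -3.72, 0.86 and 2.50 (stage effect -5.85 ± 0.95, SE, adjusted p = 0.0327, limma). Cd34 stood at 8.18, 7.87, 8.17, 7.54, 4.25, 3.76, 7.88 and 7.84 (stage effect -3.70 ± 0.38, SE, adjusted p = 0.0115, limma). With Ly6a, these were the 3 called of 18 surface and niche genes, all lower, while the median stage effect of the list was 0.29. Kit did not pass the test (0.61 ± 0.42, SE, adjusted p = 0.619).

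Megakaryocyte and platelet genes stood higher on the moribund arrays. Of 11 tested, 10 had a positive stage effect with a median of 2.65, and 1 passed the test, Clec1b, a platelet receptor (5.80 ± 0.69, SE, adjusted p = 0.0154, limma). The summed signal of the list was 9.65 in MDS and 9.14 in MDS/ML (log2 against the 75th percentile) and 3.16 to 6.62 on the month 4 arrays. All 11 were well above background in both moribund mice. Gata2, Tal1, Fli1 and Erg are also expressed in that lineage, and the part of these cells in the members' levels was not tested.

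Mast cell and basophil genes, some of them known targets of Gata2 in the mouse, were read as a list of 10. Their mean levels were -2.43 in WT, -1.47 in Ezh2Δ/Δ, 1.43 in RUNX1S291fs, 2.83 in the double mutant, 0.67 in MDS and -2.28 in MDS/ML. The CD45.1 cells of RUNX1S291fs hosts stood at -0.20 and those of double-mutant hosts at -0.86. By this mean the month 4 double mutant was highest, and MDS/ML stood near WT. Their summed signal ran from 6.86 to 8.64 on the 4 arrays with RUNX1S291fs, highest in MDS, and from 3.00 to 5.05 on the other 4. However, Cpa3, a mast cell protease gene, alone stood at 8.47 in MDS and 6.85 in MDS/ML, close to the whole sum on each. The median stage effect of the list was -3.24, with 8 of 10 negative. The test was passed by 1 of 10, the tryptase gene Tpsb2 (-4.08 ± 0.74, SE, adjusted p = 0.0474, limma). MDS/ML, with the highest Gata2, had 8 of the 10 well above background. The 10 neutrophil and granule genes all had a negative stage effect, with a median of -4.52, and 0 of 10 passed the test. The moribund mice differed in these genes, with a mean level of 5.39 in MDS and -0.14 in MDS/ML. On the month 4 arrays that mean ran from 2.81 in WT to 7.57 in the double mutant. All 10 were at least 2-fold lower in MDS/ML than in MDS.

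RNA of the Y chromosome and of the inactive X also separated arrays. Ddx3y, which is Y-linked, stood at 1.74 in Ezh2Δ/Δ and 1.57 in MDS/ML and was not above background on the other 6. Xist, the RNA of the inactive X, was dim on just those 2. Sex is not in the labels, and for Ezh2Δ/Δ and MDS/ML it cannot be told apart from genotype or disease. On the MDS array Ddx3y was at -6.77 and Xist at 2.76. The part of sex in the members' levels was not tested.

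RUNX1S291fs was carried by 4 arrays, including both moribund ones. Across these 4 arrays against the other 4, Mecom and Lmo2 lay lower without overlap and 0 members lay higher, so 2 of 10 were apart, against 7.65% of all genes either way. For Lmo2 the gap was slight, since the RUNX1S291fs and double-mutant arrays at 6.30 stood just under Ezh2Δ/Δ at 6.34. For Mecom it was slight too, with the double mutant at -3.20 and the CD45.1 cells of RUNX1S291fs hosts at -3.05. On the second Mecom probe those CD45.1 cells were themselves dim, so no such separation could be shown there. Mecom at month 4 was at least 5.08-fold lower in RUNX1S291fs and 3.38-fold lower in the double mutant than in WT, but the CD45.1 cells of RUNX1S291fs hosts, wild-type cells, were also 3.05-fold below WT. In that last pair Prdm16, Mecom, Hlf and Gata2 were all at least 2-fold lower, 4 of 10 against 18.0% of all genes. The CD45.1 cells of double-mutant hosts differed from WT at that fold in 0 of 10 members, against 6.84%. The fitted RUNX1S291fs effect of Mecom was -1.24 ± 0.49 (SE, 95% interval -2.39 to -0.09, adjusted p = 0.771, limma). It was the only member with an unadjusted p under 0.05 (5.95% of all genes), and 0 of 10 passed the adjusted threshold (0.0148% of all genes). The median over the members was 0.40, beside 0.03 over all genes.

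Single pairs showed which members stood apart in RUNX1S291fs cells. Against WT, Gata2 was 2.18-fold and Erg 2.07-fold higher, so 3 of 10 members with Mecom were at least 2-fold apart, against 14.3% of all genes. This count fell to 0 with normexp background correction. In that pair 10 of 10 mast cell and basophil genes were at least 2-fold higher (median 3.09, log2). So were 7 of 10 neutrophil genes and 5 of 11 megakaryocyte genes. The part of these cells in the differences from WT was not tested. Against the CD45.1 cells sorted from the same hosts and run on the same slide, Hlf was 9.27-fold, Gata2 4.53-fold, Erg 2.44-fold and Prdm16 2.24-fold higher, 4 of 10 against 21.1%. Those competitor cells were themselves low: beside the CD45.1 cells of double-mutant hosts, Prdm16 was 4.92-fold, Hlf 4.27-fold and Gata2 3.04-fold lower (3 of 10, against 16.1%). In the same pair 14 of 18 surface and niche genes and 10 of 11 megakaryocyte genes were at least 2-fold lower, and 10 of 10 neutrophil genes were at least 2-fold higher (median 2.57, log2). The array was also the dimmest, and the part of these cells and of brightness in the differences was not tested.

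Ezh2 deletion was likewise carried by 4 arrays, both moribund ones among them. Prdm16 lay lower on all 4 than on every other array, and 0 members lay higher, so 1 of 10 was apart, against 2.54% of all genes either way. At month 4 Prdm16 was 4.74-fold lower in Ezh2Δ/Δ than in WT. In the double mutant it was at least 14.8-fold lower than in WT and at least 7.74-fold lower than in RUNX1S291fs cells. Members at least 2-fold apart there were Prdm16 and Mecom against WT (2 of 10, with 18.5% of all genes) and Prdm16 and Hlf against RUNX1S291fs (2 of 10, with 16.6%). It was at least 17.0-fold below the CD45.1 cells of the same double-mutant hosts, the single member of 10 that stood at least 2-fold apart there (19.2% of all genes). The margin was narrow on one side, because the CD45.1 cells of RUNX1S291fs hosts, at -2.76, stood just above Ezh2Δ/Δ at -2.90. In the double mutant, 10 of 10 neutrophil genes were at least 2-fold higher than in WT (median 4.83, log2). So they were against RUNX1S291fs cells (median 3.055) and the CD45.1 cells of double-mutant hosts (median 4.74). Mast cell and basophil genes higher at that fold numbered 10, 6 and 9 of 10, in that order, with 0 lower. Against those CD45.1 cells 6 of 18 surface and niche genes were at least 2-fold lower and 1 higher. The part of these cells in the differences was not tested. The fitted Ezh2 deletion effect of Prdm16 was -2.15 ± 0.76 (SE, 95% interval -3.94 to -0.36, adjusted p = 1.00, limma), and it was the only member with an unadjusted p under 0.05 (2.37% of all genes).

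Adjusted over all genes, 0 of 10 members passed for Ezh2 deletion, as did 0% of all genes, with 321 at an unadjusted p under 0.05. The other 9 members had effects between -0.62 (Tal1) and 0.22 (Mecom). In Ezh2Δ/Δ against WT, Tal1 was 2.07-fold and Fli1 2.01-fold lower beside Prdm16, 3 of 10 against 11.6%. In the same pair 10 of 10 B cell genes (median 5.78, log2) and 6 of 10 neutrophil genes (median 3.56) were at least 2-fold higher, and 7 of 11 megakaryocyte genes were at least 2-fold lower (median -1.52). The part of these cells in the differences was not tested. In the double mutant Tal1 stood at 3.91 and Fli1 at 4.50, within 2-fold of WT. Fli1 was 2.48-fold and Lyl1 2.18-fold higher in the double mutant than in Ezh2Δ/Δ, while Hlf was 2.03-fold and Prdm16 at least 3.13-fold lower (4 of 10, against 21.9%).

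**Figure D4:**
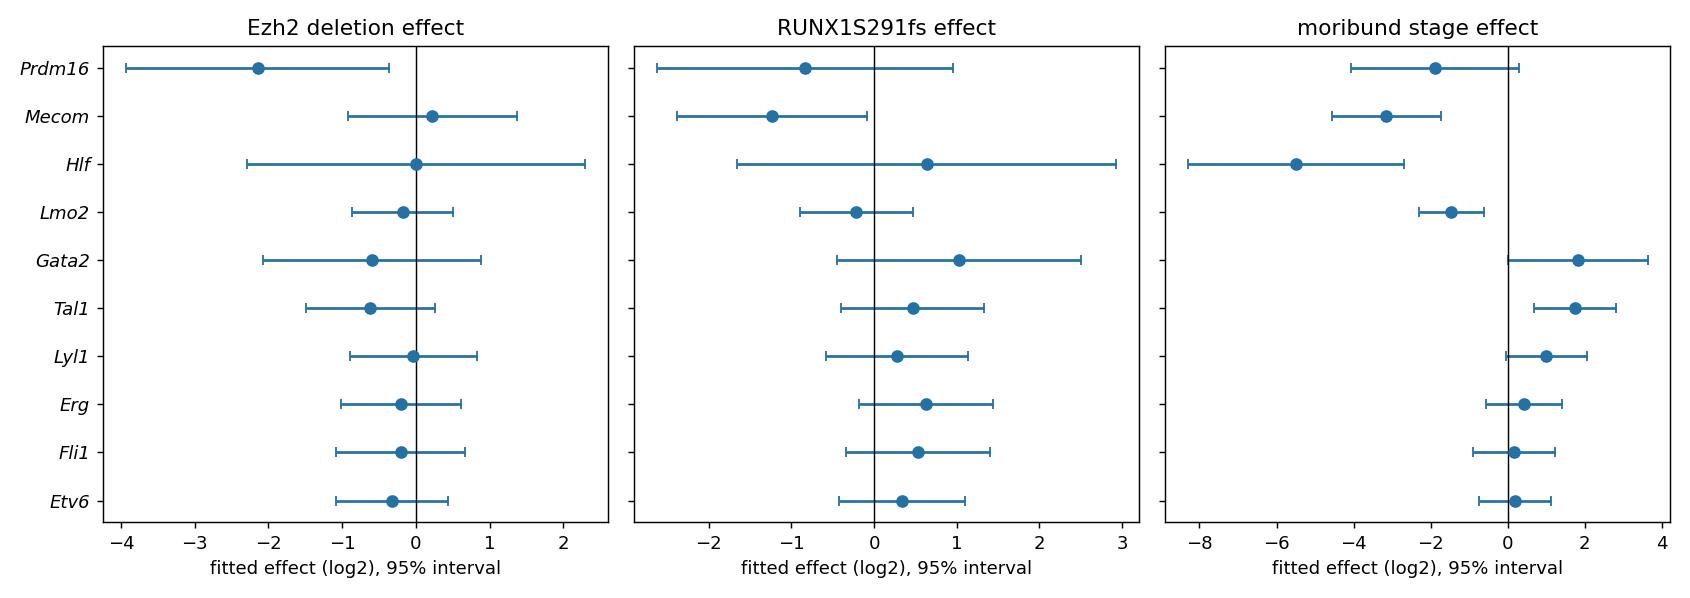
Fitted effects (log2) of Ezh2 deletion, RUNX1S291fs and moribund stage for the 10 genes, as points with 95% intervals from the limma fit over 8 arrays. The stage intervals of Mecom, Hlf, Lmo2, Tal1 and Gata2 leave out 0, yet 0 of 10 genes passed the adjusted threshold for any effect.

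Whether the 2 lesions added up was asked with their product in the fit. No member passed (0 of 10, with 0% of all genes called, and 887, or 6.54%, at an unadjusted p under 0.05). Lyl1 had the smallest p of the members, at 1.40 ± 0.57 (SE, 95% interval 0.03 to 2.78, adjusted p = 0.763, limma), and its month 4 levels were 6.92 in WT, 6.38 and 6.69 with 1 lesion, and 7.50 with both. Hlf had the largest estimate, -2.77 ± 1.81 (SE, adjusted p = 0.845).

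Partners of the members were examined as a list of 24 cofactors and co-bound factors, all tested. For each term of the additive fit 0 of 24 passed the test, and the median stage effect was 0.14. Zfpm1, the GATA cofactor known as Fog1, stood at 4.66, 4.33, 5.52, 4.12, 5.89, 6.76, 3.38 and 4.95, highest in MDS/ML like Gata2. Cbfa2t3, the corepressor of Tal1 complexes known as Eto2, stood at 4.37, 3.23, 4.14, 3.44, 5.61, 5.74, 3.36 and 4.37, with both moribund arrays on top. Tcf4, an E protein that pairs with Tal1 and Lyl1, stood at 3.26, 3.58, 3.14, 2.37, -0.07, 1.61, 2.77 and 3.41, with both moribund arrays lowest. Its stage effect was -1.96 ± 0.67 (SE, adjusted p = 0.242, limma).

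Id proteins, which lack a DNA-binding domain and sequester E proteins, varied without following a group. Id3 stood at -1.62, 3.81, 3.63, -2.14, 1.90, -3.47, -0.44 and 2.20, so MDS and MDS/ML lay on opposite sides. Id1 ranged from 0.19 in WT to 4.55 in MDS, and Id2 from 0.22 in WT to 2.72 in MDS. Of the 3 tested, 0 passed for any term.

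Relatives of the members gave 0 of 17 called for the stage effect, with a median of -0.29. Lmo1, an adaptor related to Lmo2, stood at 2.40, 2.11, -1.76, 1.25, -3.02, -3.19, 3.79 and 2.96. All 4 RUNX1S291fs arrays lay below the other 4 (RUNX1S291fs effect -3.23 ± 0.84, SE, adjusted p = 0.353, limma). Nfil3, a bZIP factor related to Hlf, stood at 1.78, 2.07, 2.58, 2.88, -0.35, -2.53, 3.09 and 2.18, lowest in both moribund mice. Among 23 other stem and progenitor transcription factors tested, 15 had a negative stage effect and 2 passed the test, both lower. These were Hoxb5, a homeobox gene of long-term stem cells (-5.54 ± 0.88, SE, adjusted p = 0.0311, limma), and Nkx2-3, another homeobox gene (-5.07 ± 0.72, SE, adjusted p = 0.0220, limma). Gfi1, a repressor of stem cell cycling and of granulocyte genes, ranged from -1.88 in MDS/ML to 5.72 in the month 4 double mutant.

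Profiles most like those of 3 members were sought among 13546 genes. These members had the widest range of those above background on all 8 arrays, and likeness was the root mean square difference of levels after each gene was centred on its own mean over the 8 arrays. Nearest to Hlf were Arhgap32 (0.325), 6030498E09Rik (0.560) and Klhl4 (0.575), with Mecom in place 150 (1.26) and Prdm16 in place 212 (1.34). Nearest to Gata2 were Zfpm1 (0.331), AI661453 (0.361) and Trappc9 (0.362), with Tal1 in place 25 (0.510). Nearest to Tal1 were Cbfa2t3 (0.215), Cd274 (0.228) and Selenbp1 (0.231), with Lyl1 in place 293 (0.505) and Gata2 in place 307. All rest on the same 8 arrays and carry no test. The 3 nearest to Hlf were not above background on 2 or 3 of the arrays.

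**Figure D5:**
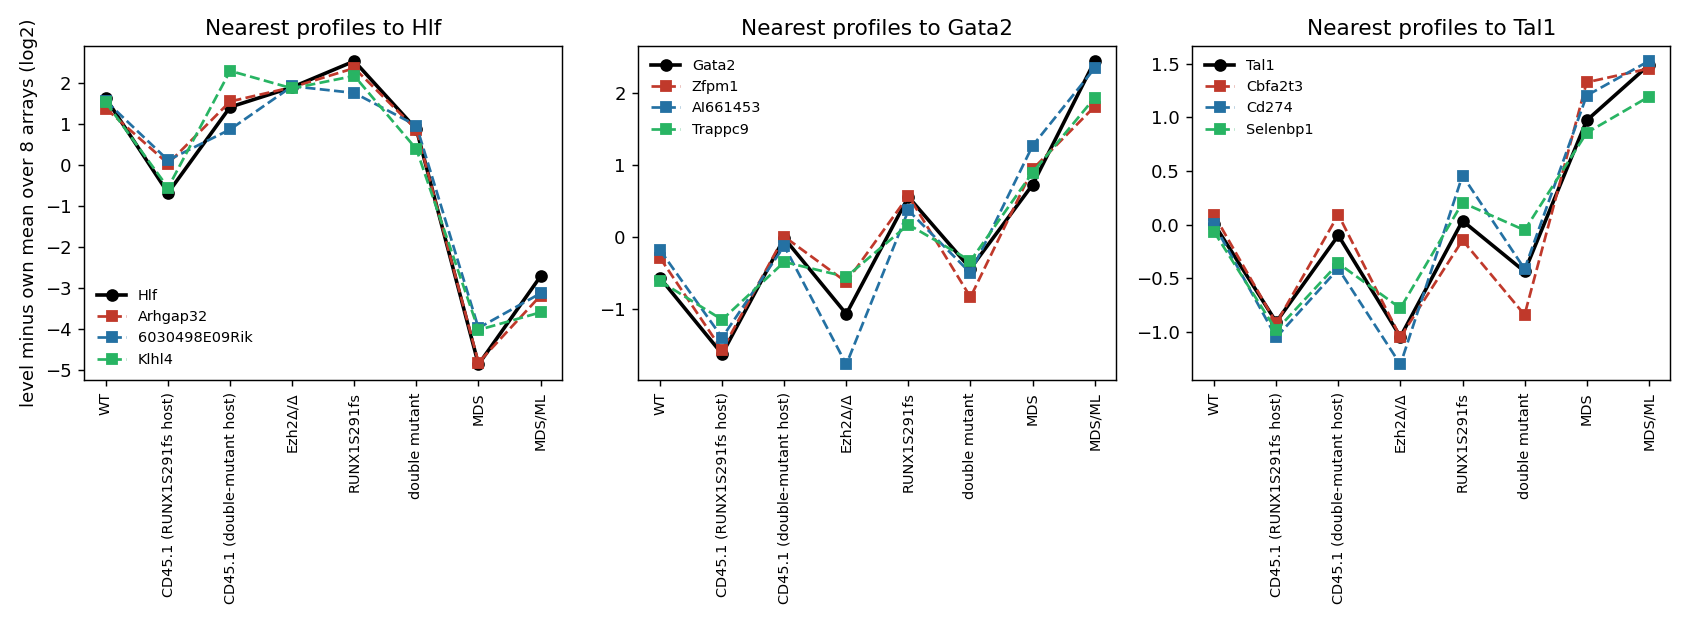
Levels (log2) on the 8 arrays, each gene centred on its own mean, for Hlf, Gata2 and Tal1 in black and the 3 genes nearest to each in colour. Zfpm1 follows Gata2 with a root mean square difference of 0.331 and Cbfa2t3 follows Tal1 with 0.215.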

How the data were processed

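RNA of sorted LSK cells was measured on 8 one-colour Agilent arrays, 1 for each group. Per the labels' protocols, 20 ng of total RNA was amplified and labelled with Cyanine 3. Per the file headers, Agilent Feature Extraction 10.7.1.1 produced the deposited values, whose processed signal is a background-corrected intensity that was not scaled across arrays. The number of arrays, not a read depth, limits the precision.

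Spots of a probe were averaged, and levels are log2 intensity minus the 75th percentile of the array. Names came from RefSeq (GRCm38.p6) through transcript accessions, for 27235 of 55681 probes and 20660 genes. For the 5476 genes with several probes, the one with the highest mean was used. The file headers name another build, so the only coordinates printed are those of the RefSeq promoter entries. The fit used limma 3.58.1 (R 4.3.3) and the 13555 genes that 3 or more arrays showed well above background, with Benjamini-Hochberg adjustment and a threshold of 0.05. The script was tested on simulated data. The spread of the fit has 4 residual degrees of freedom.

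Pairs of arrays were compared over genes that either array showed well above background. For a dim gene the higher of its own signal and the weakest signal that passed as well above background on that array was taken, which gives a bound ("at least"). Fitted effects use dim values as measured and are no bounds. For the 3 members compared with all other genes, the search ran over genes tested. Normexp background correction, one of the alternatives, used the median spot signal with an offset of 50, because the mean spot signal it was planned for is not among the columns used here. The other alternatives were quantile scaling, the filter on dim probes, the mean of all probes, slide as a block, a term for CD45.1 cells, host as a block, month 4 arrays only, the authors' deposited table, and each array left out.

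The members, gene lists and tests were chosen with earlier results of these data known. Named genes are the members, the targeted genes, the 3 genes nearest to each of 3 members, the 3 of each list with the widest range, list genes past the threshold, and genes whose values stand beside a member's result. One gene that this rule names is not reported here.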

Additional observations from a re-analysis of the deposited data

How the results depend on the processing

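For the Ezh2 deletion effect and the interaction, the number of genes called was 0 under every alternative run. Of the RUNX1S291fs effect, where 2 genes were called, 1 was called with normexp background correction, 0 with genes above background on all 8 arrays, 0 with no filter, 1 with the mean of all probes, 0 with slide as a block, 0 with a term for CD45.1 cells and 4 on month 4 arrays only. It was 0, and 566 at an unadjusted p under 0.05, with host as a block on the 4 arrays of CD45.2 and CD45.1 cells from the same hosts, a fit chosen after seeing the data that leaves 1 residual degree of freedom. With 1 array left out it ranged from 0 to 10 (10 without the CD45.1 array of RUNX1S291fs hosts). The moribund stage effect, with 250 genes called, gave 152 with genes above background on all 8 arrays, 150 with no filter and 75 with slide as a block. It ranged from 0 without the double mutant to 381 without MDS/ML, and was 70 without WT, 81 without the CD45.1 array of double-mutant hosts and 157 without MDS. Members at least 2-fold apart numbered 0 in place of 3 (RUNX1S291fs against WT), 1 in place of 2 (double mutant against WT) and 2 in place of 4 (double mutant against Ezh2Δ/Δ) with normexp. With the mean of all probes they numbered 2 in place of 1 (double mutant against CD45.1 of its hosts). The cause was not tested.

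Of the members, Hlf, Mecom, Prdm16, Lmo2, Gata2, Tal1 and Lyl1 kept the sign of the stage effect under every alternative run. With 1 array left out, that of Erg ranged from -0.21 (without the double mutant) to 0.68, that of Etv6 from -0.13 (without the double mutant) to 0.32 and that of Fli1 from -0.22 (without Ezh2Δ/Δ or RUNX1S291fs) to 1.08. The Ezh2 deletion effect of Prdm16 kept its sign (-2.95 to -1.17). That of Mecom turned to -0.025 with normexp, -0.0032 with the mean of all probes and -0.15 with the CD45.1 term. That of Hlf turned to -0.69 with the CD45.1 term, and that of Lyl1 to 0.014 with normexp and 0.13 with the CD45.1 term. With 1 array left out it ranged from -0.020 to 0.59 for Mecom, -1.66 to 1.11 for Hlf, -0.74 to 0.16 for Erg, -0.72 to 0.58 for Fli1 and -0.60 to 0.81 for Lyl1. The RUNX1S291fs effect of Hlf turned to -0.057 with the CD45.1 term and ranged from -1.02 to 1.75 with 1 array left out, and that of Lyl1 from -0.28 to 1.12. Under quantile scaling the interaction turned to -0.092 for Tal1 and -0.21 for Lmo2. No paired analysis was possible because the only replicate number is 1, apart from the pairing by host given above. Prdm16 and Mecom lie near background, which limits both.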

Other observations

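Lymphoid genes gave a different picture from the stem cell factors. B cell genes had a positive Ezh2 deletion effect in 8 of 8 tested (median 2.75) and a negative RUNX1S291fs effect in 8 of 8 (median -4.30), with 0 of 8 past the adjusted threshold for either. The first effect rested on the Ezh2Δ/Δ array: 10 of 10 were at least 2-fold higher there than in WT (median 5.78), but 1 of 6 was in the double mutant against RUNX1S291fs (median 0.33), and the interaction was negative in 8 of 8 (median -4.17). Wild-type CD45.1 cells of double-mutant hosts also had 8 of 9 at least 2-fold above WT (median 3.48). Vpreb1, a surrogate light chain gene of early B cells, reached 7.06 in Ezh2Δ/Δ and was lowest, at -1.28, in MDS/ML. Flt3, a receptor of lymphoid-primed progenitors, stood at 5.71, 5.90, 4.15, 3.23, -2.34, -1.28, 4.86 and 5.75 in the order of arrays used above. It fell with moribund stage (-5.46 ± 0.61, SE, adjusted p = 0.0126, limma) and was lower on all 4 RUNX1S291fs arrays than on the other 4.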
